A study of Mus musculus with 6 samples.

Results

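The genes examined here in activated mouse CD8+ T cells were 9 G protein-coupled receptor genes whose products report on lipids, protons, adenosine or prostaglandin E2 around the cell. They were Gpr65, Gpr132, Gpr183, Ffar2, Ffar3, Adora2a, Adora2b, Ptger2 and Ptger4, chosen by symbol from the 24589 genes of the expression table, and all 9 were found. The libraries were bulk RNA-seq of primary wild-type CD8+ T cells, which the study isolated with magnetic beads from C57BL/6 spleens and peripheral lymph nodes, kept in Click's medium with serum and activated through CD3 and CD28. For 24 h after activation the cells received either DMSO, the solvent control, or TVA (trans-vaccenic acid, a trans fatty acid of ruminant fat) at 20 µM, and there were 3 libraries of each. The study as a whole used adult mice of both sexes, matched by sex and age, but which mice gave these libraries, and whether each library came from its own mouse, is not given in the sources used here, so p-values measure the spread between these libraries, which may be technical.

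G protein-coupled receptors sit in the cell membrane and pass a ligand signal to heterotrimeric G proteins. Gs raises cyclic AMP (cAMP), Gi lowers it, and cAMP acts through protein kinase A and the transcription factor CREB. In lymphocytes, adenosine and prostaglandin E2 are known for restraining activation through cAMP. The study asked which fatty acid receptor TVA acts on, with GPR43 (Ffar2) and GPR41 (Ffar3) among the candidates. It reported GPR43 as a target and also examined the proton sensor GPR65.

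Levels are given as TPM, an abundance unit scaled for transcript length and to the same sum in every library, so that genes can be compared with each other. Sequencing depth is unknown. A gene was tested when at least 3 libraries reached 1 TPM, and changes are TVA minus DMSO on the log2(TPM + 1) scale from limma, with p-values adjusted by Benjamini and Hochberg across the 10866 tested genes, of which those under 0.05 passed. On this scale the change of a low gene is understated. Of the 9 receptors, 7 were tested. Ffar2 and Ffar3 did not reach the filter.

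Of the 7 receptors tested, 1 passed the threshold, against 8.51% of all genes tested (5.28% higher and 3.23% lower with TVA). Gpr65 rose with TVA, by 20.6% in mean TPM, and it was already the most abundant transcript of the group. The other 6 had lower means with TVA, where 38.5% of all genes tested had a lower fitted mean, and none of them passed. At an unadjusted limma p under 0.05 there were 4 of the 7, beside 31.8% of all genes tested. The median log2 change of the 7 was -0.15, beside 0.04 for all genes tested. The 3 TVA values lay outside the range of the 3 DMSO values for 5 of the 7 (1 above, 4 below), and the same was true of 38.6% of all genes tested (27.3% above and 11.2% below).

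**Figure D1:**
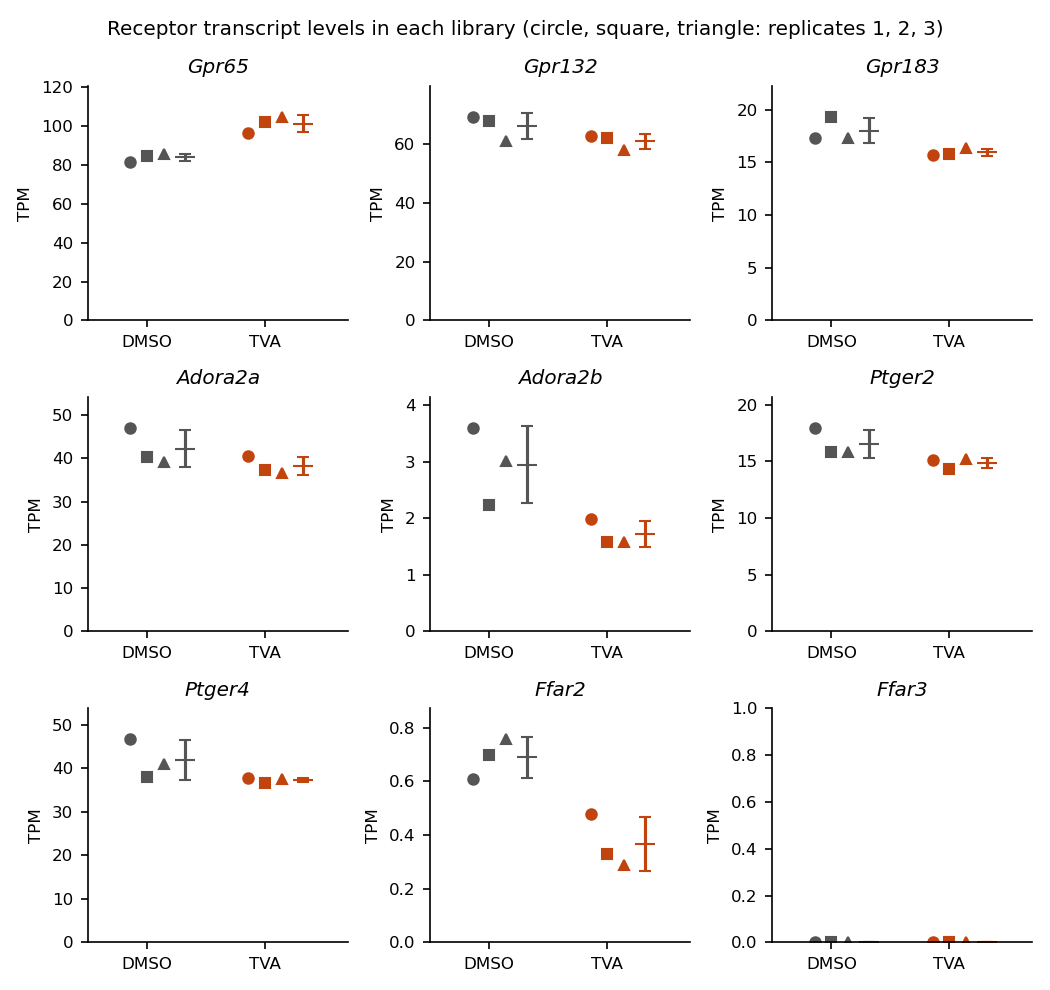
TPM of each receptor gene (y axis, from 0) in the 3 DMSO (grey) and 3 TVA (orange) libraries, with the mean and SD beside the points. Gpr65 lay between 81.6 and 85.3 TPM with DMSO and between 96.3 and 105 TPM with TVA, while Ffar3 was listed at 0 in every library.

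Any pair of libraries correlated with a Pearson r between 0.989 and 0.999 over genes, which are not independent replicates. DMSO replicate 2 stood closer to the TVA libraries (0.996 with each) than to DMSO replicates 1 (0.993) and 3 (0.995), so values of the receptors and named genes without it are given where they change a call. The cells carried the markers of their label, with Cd8a at 274 to 318 TPM and Cd4 at 3.33 to 4.46 TPM. None of the markers of other cell types was listed at 0 in all libraries. The summed TPM of 10 myeloid markers, of which Lyz2 was the highest, was 66.5 to 67.4 with DMSO and 85.3 to 89.8 with TVA. Of the 9 that were tested, 3 passed as higher, against 8.51% of all genes tested in either direction. The 8 B cell markers, mostly Cd79b, summed to 11.4 to 15.1 TPM with DMSO and 10.7 to 11.2 with TVA. The 6 dendritic cell markers, mostly Zbtb46, summed to 7.47 to 7.69 TPM with DMSO and 6.63 to 7.31 with TVA. The 4 CD4 T cell markers summed to 15.1 to 16.2 and 12.2 to 14.2 TPM, the 5 NK cell markers (mostly Eomes, which activated CD8+ T cells also express) to 23.5 to 26.5 and 34.8 to 35.9 TPM, and the 5 red cell markers to 37.7 to 61.3 and 48.6 to 58.7 TPM. Several of these receptors are also known from myeloid cells, B cells or dendritic cells, and the part of such cells in the values below was not tested. In bulk RNA, more cells of a type and more RNA per cell cannot be told apart.

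Gpr65 encodes a receptor that is activated by extracellular protons and couples to Gs. The gene lies on chromosome 12 (GRCm38, chr12:98268635-98276644, plus strand) with 2 exons. Its TPM was 81.6, 84.5 and 85.3 in the DMSO libraries and 96.3, 102 and 105 in the TVA libraries. Every TVA library stood above every DMSO library. Means were 83.8 ± 1.96 (SD, n = 3) and 101 ± 4.33 TPM (SD, n = 3), a log2 change of 0.27 (SE 0.043, 95% interval 0.17 to 0.37, limma adjusted p 0.017). It kept its call with any DMSO library left out, DMSO replicate 2 included (limma adjusted p 0.010), but not without TVA replicate 2 or TVA replicate 3 (0.0996 and 0.098). The transcripts of Gpr65 have a GC content of 42.3%, and across the genes tested the log2 change ran against GC content with a Spearman correlation of -0.40. After that trend was removed within each library the change of Gpr65 was 0.18 (limma adjusted p 0.014). An antisense gene, Gm47566, covers 511 of the 2069 exonic bases of Gpr65, and whether reads were counted by strand is not given in the sources used here, so reads from the overlap cannot be assigned to either gene. The summed myeloid markers given above were also higher with TVA, and their part in the Gpr65 result was not tested.

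Gpr132 encodes a receptor of the same subfamily, known for responding to lysophospholipids and oxidized fatty acids, and lies further along chromosome 12 (chr12:112850873-112868228, minus strand). Its TPM was 69.5, 68.1 and 61.1 with DMSO and 63.0, 62.0 and 58.2 with TVA. The groups overlapped, since DMSO replicate 3 stood below TVA replicates 1 and 2. The log2 change was -0.11 (SE 0.058, 95% interval -0.25 to 0.021, limma adjusted p 0.22), and Gpr132 did not pass under any alternative. Gpr4, another receptor gene of this subfamily, was at or below 0.15 TPM in every library.

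Gpr183 (EBI2) encodes the receptor for 7α,25-dihydroxycholesterol and related oxysterols, which guides lymphocytes and dendritic cells within lymphoid tissue. It lies on chromosome 14 (chr14:121952551-121965195, minus strand), inside the span of Ubac2 on the opposite strand, with no shared exonic base. Its TPM was 17.4, 19.4 and 17.3 with DMSO and 15.7, 15.8 and 16.3 with TVA. All TVA libraries stood below all DMSO libraries, by a narrow margin. Means were 18.0 ± 1.17 and 15.95 ± 0.342 TPM (SD, n = 3 each), a log2 change of -0.16 (SE 0.055, 95% interval -0.29 to -0.037, limma adjusted p 0.094). With the GC trend removed the change was -0.21 and passed (limma adjusted p 0.041). Ubac2 itself was at 51.8 ± 5.18 and 49.4 ± 1.04 TPM (SD, n = 3 each; limma adjusted p 0.55). Of the enzymes that make or remove these oxysterols, Ch25h, Cyp7b1 and Cyp27a1 stayed at or below 0.23 TPM in all libraries. Hsd11b1, the highest of the list at 6.93 ± 0.873 and 7.14 ± 0.620 TPM (SD, n = 3 each), and Hsd3b7 did not pass (limma adjusted p 0.78 and 0.32).

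Adenosine is sensed by a high-affinity receptor (Adora2a) and a low-affinity receptor (Adora2b), both of which raise cAMP. Adora2a, on chromosome 10 (chr10:75316877-75334784, plus strand), had values of 47.1, 40.2 and 39.2 TPM in the DMSO libraries and of 40.5, 37.3 and 36.7 TPM in the TVA libraries. The groups overlapped, and DMSO replicate 1 was the high library. The log2 change was -0.14 (SE 0.075, 95% interval -0.31 to 0.037, limma adjusted p 0.24). Adora2a has the highest transcript GC content of the 9 genes (60.3%), and its change was 0.0099 with the GC trend removed, so its direction depended on that correction. Without DMSO replicate 1 it was -0.057 (limma adjusted p 0.46).

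Adora2b, on chromosome 11 (chr11:62248984-62266453, plus strand), had values of 3.60, 2.23 and 3.01 TPM in the DMSO libraries and of 1.98, 1.58 and 1.58 TPM in the TVA libraries. The TVA values lay below all DMSO values, and DMSO replicate 2 was the DMSO library nearest to them. Means were 2.95 ± 0.687 and 1.71 ± 0.231 TPM (SD, n = 3 each). The log2 change of -0.53 (SE 0.13, 95% interval -0.84 to -0.22) was the largest in size of the 7 and missed the threshold by a small margin (limma adjusted p 0.051). Without DMSO replicate 2 it was -0.67 and passed (limma adjusted p 0.0067), and over all alternatives the adjusted p ran from 0.0067 to 0.18. The Adora2a to Adora2b transcript ratio, which is independent of library scaling, was 13.1, 18.0 and 13.0 with DMSO and 20.5, 23.6 and 23.2 with TVA. The ratio was higher in 3 of 3 TVA libraries than in any DMSO library (exact two-sided permutation p 0.10, the smallest that 3 against 3 libraries can give). Adora1 was listed at 0 in all libraries and Adora3 reached at most 0.17 TPM.

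The genes that supply and clear adenosine were a list of 12. Of the 10 tested, 2 passed as higher and none as lower, against 8.51% of all genes tested in either direction. Nt5e encodes CD73, the ectoenzyme that forms extracellular adenosine from AMP. It rose from 14.9 ± 0.170 to 18.3 ± 0.719 TPM (SD, n = 3 each; log2 change 0.28, limma adjusted p 0.017). Dpp4 encodes CD26, a surface peptidase that binds adenosine deaminase, and rose from 17.8 ± 0.338 to 21.9 ± 0.233 TPM (SD, n = 3 each; log2 change 0.28, limma adjusted p 0.012). Leaving out any 1 TVA library ended both calls, with limma adjusted p from 0.051 to 0.0996 for Nt5e and from 0.062 to 0.080 for Dpp4. Entpd1, which encodes CD39, was at 0.51 to 0.71 TPM and was not tested. The adenosine transporter gene Slc29a1 was the highest of the list, at 107 ± 9.64 and 102 ± 2.19 TPM (SD, n = 3 each; limma adjusted p 0.49).

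Prostaglandin E2 raises cAMP through EP2 (Ptger2) and EP4 (Ptger4). Ptger2, on chromosome 14 (chr14:44988195-45003820, plus strand), had values of 18.0, 15.9 and 15.8 TPM in the DMSO libraries and of 15.1, 14.3 and 15.2 TPM in the TVA libraries. Ptger4, on chromosome 15 (chr15:5206661-5244187, minus strand), had values of 46.8, 38.0 and 40.9 TPM in the DMSO libraries and of 37.7, 36.7 and 37.5 TPM in the TVA libraries. For both genes each TVA library stood below each DMSO library, and DMSO replicate 1 was the highest. The log2 changes were -0.15 for Ptger2 (SE 0.060, 95% interval -0.29 to -0.0070, limma adjusted p 0.14) and -0.16 for Ptger4 (SE 0.072, 95% interval -0.33 to 0.0081, limma adjusted p 0.17). Ptger4 passed without DMSO replicate 2 (-0.22, limma adjusted p 0.039). Without DMSO replicate 1 Ptger4 was at -0.077 (0.25) and Ptger2 at -0.089 (0.22). The Ptger4 to Ptger2 ratio was 2.61, 2.40 and 2.58 with DMSO and 2.50, 2.56 and 2.47 with TVA, so the balance of EP4 and EP2 transcripts overlapped between the groups (exact two-sided permutation p 0.80). Annotated exons of Gm15937, a processed pseudogene on the opposite strand, cover 1015 of the 6648 exonic bases of Ptger4, and those of Ttc33, a protein-coding gene at 26.0 TPM with DMSO and 26.4 TPM with TVA, cover 82. Exons of Gm17173 and Gm49364 on the opposite strand cover 246 and 144 of the 5193 exonic bases of Ptger2. If reads were counted without regard to strand, which is not given, some reads of both receptor genes are uncertain. No TPM was listed for Gm15937, Gm17173 or Gm49364.

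In the 9 related adenosine and prostanoid receptor genes, 3 were tested and 1 passed as lower, against 8.51% of all genes tested in either direction. Ptgir, the prostacyclin receptor gene, had values of 1.40, 1.23 and 1.08 TPM in the DMSO libraries and of 0.63, 0.72 and 0.68 TPM in the TVA libraries (log2 change -0.41, limma adjusted p 0.033). It met the filter through its DMSO values alone, so it could be tested only because it was higher there. It kept its call without DMSO replicate 2, when all 3 tested relatives passed, and lost it without any other library (limma adjusted p 0.057 to 0.12). Ptger1, which encodes the prostaglandin receptor EP1, was the most abundant of these relatives. Its TPM was 26.6, 17.5 and 23.1 with DMSO and 17.6, 17.2 and 18.4 with TVA, with overlapping groups (log2 change -0.30, limma adjusted p 0.15). Without DMSO replicate 2 it was at -0.46 and passed (limma adjusted p 0.0051), and without DMSO replicate 1 it was at -0.17 (0.27). Of 10 genes for prostaglandin E2 synthesis and removal, 7 were tested. Against 8.51% of all genes tested in either direction, 1 of the 7 passed, as higher. This was Ptges, an inducible prostaglandin E synthase gene, at 0.960 ± 0.0700 and 1.73 ± 0.200 TPM (SD, n = 3 each; log2 change 0.47, limma adjusted p 0.021), which met the filter through its TVA values and lost its call when DMSO replicate 3 or any TVA library was left out (0.052 to 0.11). Ptges3, the highest of the list, was at 326 ± 23.1 and 317 ± 8.93 TPM (SD, n = 3 each; limma adjusted p 0.65).

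Ffar2 and Ffar3 encode the short-chain fatty acid receptors GPR43 and GPR41 and are close neighbours on chromosome 7 (chr7:30818348-30823775 and chr7:30854330-30856178, both minus strand). Ffar2 had values of 0.61, 0.70 and 0.76 TPM in the DMSO libraries and of 0.48, 0.33 and 0.29 TPM in the TVA libraries. These are low values, at which counting error may be large, and depth is unknown. The TVA values lay below all DMSO values (exact two-sided permutation p 0.10, the smallest that 3 against 3 libraries can give). The log2 difference was -0.31 with a pseudocount of 1 and -0.78 with 0.1. When all genes above 0 TPM were tested, limma gave an adjusted p of 0.060. Of the marker sums given above, those of B cells and dendritic cells were lower in every TVA library than in any DMSO library. The B cell sum was mostly Cd79b and the dendritic cell sum mostly Zbtb46. The 7 other B cell and 5 other dendritic cell markers stayed at or below 1.07 TPM and were not tested. The myeloid sum was higher in every TVA library, and the part of such cells in the Ffar2 values was not tested. Ffar3 was listed at 0 in all 6 libraries, so no fold change is given for it.

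The fatty acid receptors that the study screened by knockdown are encoded by Ffar1, Ffar2, Ffar3, Ffar4, Gpr84 and Gpr119, and their transcripts were sparse in these cells. The highest value among these genes in any library was 0.76 TPM, for Ffar2. Gpr84 reached at most 0.59 and Ffar4 at most 0.43 TPM, Ffar1 was above 0 in 1 library at 0.06 TPM, and Gpr119 was listed at 0 throughout. In the study's screen, the gain in TNF with TVA was lost only when GPR43 was knocked down. The study also reported that GPR43 mRNA and protein rose with CD3 and CD28 stimulation, more in CD8+ than in CD4+ T cells. Its further evidence for GPR43 included a TVA probe pull-down and Gpr43 knockout in T cells and mice. Receptor protein was not measured in these libraries. Hcar2, a receptor for β-hydroxybutyrate and niacin, was the only tested gene of the list of 8 other fatty acid and hydroxyacid receptors that holds Ffar1, Ffar4, Gpr84 and Gpr119, at 2.14 ± 0.166 and 1.95 ± 0.107 TPM (SD, n = 3 each; log2 change -0.093, limma adjusted p 0.41).

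**Figure D2:**
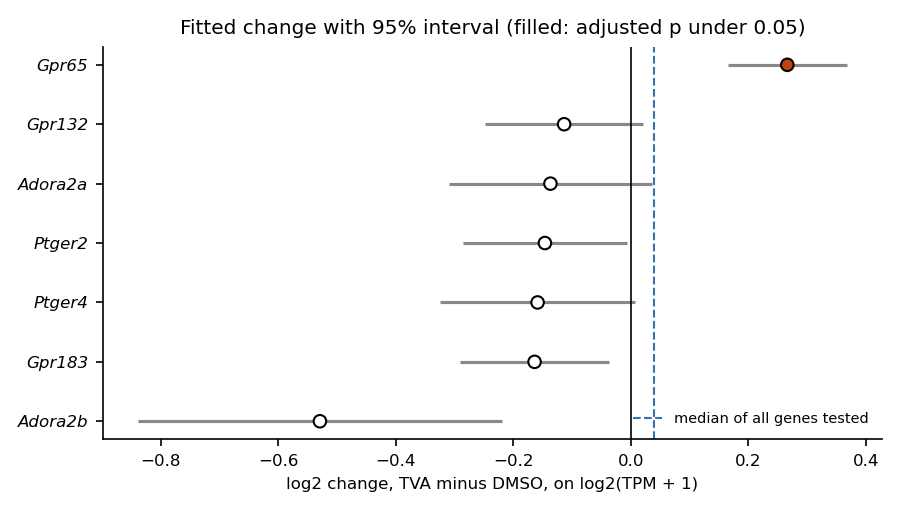
Fitted log2 change, TVA minus DMSO, of the 7 receptors tested (points) with 95% intervals from limma (lines), filled where the adjusted p was under 0.05, and the median of all genes tested as a dashed line. Gpr65 at 0.27 stood alone to the right of 0, and Adora2b at -0.53 had the widest interval, from -0.84 to -0.22.

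The promoters of Gpr65, Adora2b and Ffar3 are shown because these are the receptor that rose, the tested receptor with the lowest fitted change and the receptor listed at 0. Each sequence is the stretch of 250 bases before the annotated start from RefSeq (GRCm38.p6), on the strand of the gene, 5′ to 3′. Capitals mark the cAMP response element TGACGTCA, the palindrome that CREB is known to bind, its shorter core TGACG on either strand, or the AP-1 motif TGANTCA, which reads as itself on the other strand.

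Gpr65, chr12:98268385-98268634, plus strand: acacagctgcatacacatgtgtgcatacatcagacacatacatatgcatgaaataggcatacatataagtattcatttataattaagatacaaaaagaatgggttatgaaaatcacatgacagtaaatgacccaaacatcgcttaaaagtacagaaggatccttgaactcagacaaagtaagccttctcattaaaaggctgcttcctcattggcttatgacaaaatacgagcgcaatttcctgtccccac
Adora2b, chr11:62248734-62248983, plus strand: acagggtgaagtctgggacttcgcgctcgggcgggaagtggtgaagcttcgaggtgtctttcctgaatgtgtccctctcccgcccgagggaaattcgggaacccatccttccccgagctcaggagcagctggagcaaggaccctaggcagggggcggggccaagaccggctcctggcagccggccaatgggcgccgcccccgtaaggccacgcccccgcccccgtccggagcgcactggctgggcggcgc
Ffar3, chr7:30856179-30856428, minus strand: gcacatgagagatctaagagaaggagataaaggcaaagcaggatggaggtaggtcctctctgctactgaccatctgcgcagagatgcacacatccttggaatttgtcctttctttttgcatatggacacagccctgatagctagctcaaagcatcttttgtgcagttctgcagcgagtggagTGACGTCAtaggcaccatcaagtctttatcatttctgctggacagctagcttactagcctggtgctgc

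Promoter windows of 300 bases (250 before and 50 after the start) were searched on both strands, 11 of them for the members, with 4 for Ffar2 alone. The full TGACGTCA was in 1 of the 11, that of Ffar3, beginning 68 bases before the start, and in 1.79% of 32851 mouse windows. The core TGACG, which the full element contains, was in 2 of the 11, those of Ffar3 and Gpr132, and in 20.8% of all windows. TGANTCA was in 1 of the 11, a window of Ffar2, and in 7.81% of all. The windows of Gpr65 and Adora2b held none of these motifs and differed in GC content, at 38.3% and 70.0%. A match or its lack is a description of these letters in these windows.

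Ordered by mean TPM over the 6 libraries, the receptors ran Gpr65 (92.4), Gpr132 (63.7), Adora2a (40.2), Ptger4 (39.6), Gpr183 (17.0), Ptger2 (15.7), Adora2b (2.33), Ffar2 (0.528) and Ffar3 (0). Neighbours in this order kept it in 6 of 6 libraries, except Adora2a above Ptger4 (4 of 6) and Gpr183 above Ptger2 (5 of 6). Adora2a and Ptger4 overlapped in both groups. Gpr183 and Ptger2 overlapped with DMSO (down to 17.3 and up to 18.0 TPM) and not with TVA (down to 15.7 and up to 15.2 TPM). Gpr65 stood above 85.2% of all genes tested by mean level, and Adora2b above 8.90%.

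The summed TPM of the 9 genes was 285, 269 and 263 with DMSO and 271, 270.2 and 271 with TVA, and the groups overlapped. The composition of that sum differed. Gpr65 made up 28.7%, 31.4% and 32.4% of it with DMSO and 35.6%, 37.8% and 38.7% with TVA, with no overlap. The share of Gpr132 was 24.3 ± 1.05% and 22.6 ± 0.942%, and that of Adora2a 15.5 ± 0.941% and 14.1 ± 0.750% (SD, n = 3 each), both with overlap between the groups. The shares of Gpr183, Adora2b, Ptger2, Ptger4 and Ffar2 were each lower in every TVA library than in any DMSO library. All shares are parts of the same sum, so a higher share of Gpr65 lowers the others. The TPM of these genes with TVA already lay below all DMSO values. The shares are a description with no test, and like the ratios below they were not corrected for GC content.

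**Figure D3:**
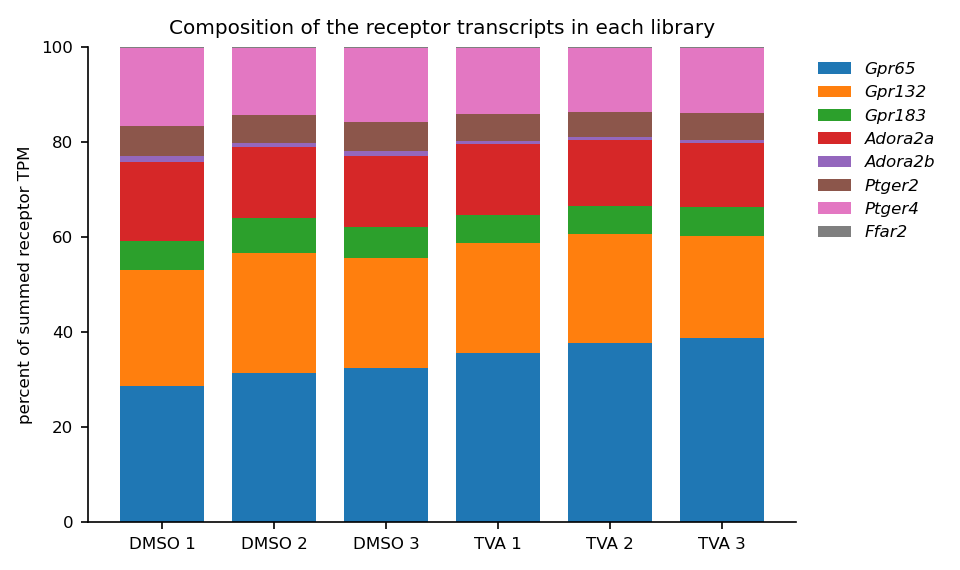
Share of each receptor in the summed receptor TPM of a library (y axis, percent, from 0 to 100), 1 bar per library. The Gpr65 segment spans 28.7% to 32.4% in the DMSO libraries and 35.6% to 38.7% in the TVA libraries, and Ffar2, at most 0.288%, is too thin to be seen.

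Ratios between receptors within a library do not depend on how libraries were scaled, but the GC differences between libraries remain in them. With the GC correction the log2 changes of Gpr65 (0.18), Gpr132 (-0.080) and Adora2a (0.0099) were smaller in size than reported. Those of Gpr183, Adora2b, Ptger2 and Ptger4 were larger in size. The ratios were not recomputed with that correction. Gpr65 over Gpr132 was 1.17, 1.24 and 1.40 with DMSO and 1.53, 1.65 and 1.80 with TVA. Gpr65 over Adora2a was 1.73, 2.10 and 2.18 with DMSO and 2.38, 2.74 and 2.86 with TVA. Gpr65 over Ptger4 was 1.74, 2.23 and 2.09 with DMSO and 2.55, 2.78 and 2.79 with TVA. In each case, and likewise against Gpr183, Ptger2, Adora2b and Ffar2, all TVA libraries lay above all DMSO libraries. The ratios are a description with no test, since they share the Gpr65 values, and for Gpr183, Ptger2, Ptger4, Adora2b and Ffar2 the order follows from levels that already did not overlap.

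The genes whose pattern over the 6 libraries was most like that of each receptor whose mean reached 10 TPM were taken from 8934 other genes whose mean reached 5 TPM, by Pearson correlation of log2(TPM + 1). The 6 points share the treatment split and the GC differences between libraries. For Gpr65 they were Zdhhc17, Hus1 and Zfp119a (r 0.997, 0.996 and 0.996), and 12.4% of all genes compared exceeded 0.9. For Gpr132 they were Dhx58, Ccdc94 and Mob2 (0.989, 0.984 and 0.978), where 0.839% exceeded 0.9. For Gpr183 they were Rpl37a, Ifit1 and Map2k3os (0.992, 0.992 and 0.986), and for Adora2a Rplp0, Dvl1 and Mbd6 (0.991, 0.988 and 0.987). For Ptger2 they were Plcg2, Pym1 and Rps9 (0.997, 0.992 and 0.991), and for Ptger4 Isyna1, Rmi2 and Map3k11 (0.998 for each). Genes above 0.9 made up 0.683% of those compared for Gpr183, 3.27% for Adora2a, 4.65% for Ptger2 and 8.12% for Ptger4.

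Receptors of other lipids in T cells were a list for lysophospholipids, eicosanoids and cannabinoids with 22 genes in the table. Of the 14 tested, 1 passed as higher and 1 as lower, against 8.51% of all genes tested in either direction. S1pr1, the sphingosine 1-phosphate receptor that directs lymphocytes out of lymphoid tissue, had values of 9.73, 10.9 and 11.0 TPM in the DMSO libraries and of 14.4, 13.8 and 13.6 TPM in the TVA libraries (log2 change 0.37, SE 0.059, limma adjusted p 0.016). Its groups did not overlap, and its call was lost without any 1 TVA library (0.073 to 0.086). Gpr34, a lysophosphatidylserine receptor gene, had values of 4.78, 5.83 and 6.01 TPM in the DMSO libraries and of 3.93, 3.82 and 4.21 TPM in the TVA libraries (log2 change -0.39, SE 0.085, limma adjusted p 0.037), and lost its call when DMSO replicate 3 or any TVA library was left out (0.096 to 0.16). P2ry10 was the highest of the list, at 91.0 ± 8.84 and 95.3 ± 2.45 TPM (SD, n = 3 each; limma adjusted p 0.51). Of 11 other Gs-coupled receptors 4 were tested and none passed, with 1 of the 4 at an unadjusted limma p under 0.05, against 31.8% of all genes. That was Calcrl, also the most abundant of them, at 12.2 ± 0.146 and 10.9 ± 0.280 TPM (SD, n = 3 each; log2 change -0.15, limma adjusted p 0.072). It passed with the GC correction, at -0.26 (0.016).

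Downstream of the receptors, 17 of 18 G protein subunit genes were tested. Of these, 1 passed as higher and 1 as lower, against 8.51% of all genes tested in either direction. Gna15, a promiscuous Gq-class alpha subunit gene of haematopoietic cells, fell from 7.03 ± 1.07 to 4.62 ± 0.147 TPM (SD, n = 3 each; log2 change -0.51, SE 0.093, limma adjusted p 0.022). Gng10, a gamma subunit gene, rose from 80.2 ± 2.78 to 95.1 ± 1.71 TPM (SD, n = 3 each; log2 change 0.24, SE 0.040, limma adjusted p 0.017). Without any 1 TVA library both calls were lost (limma adjusted p 0.083 to 0.11 for Gna15 and 0.081 to 0.092 for Gng10), and without DMSO replicate 3 that of Gna15 (0.057). The Gs alpha gene Gnas was at 220.0 to 269 TPM with DMSO and 227 to 233 TPM with TVA, with overlap (limma adjusted p 0.70), and the highest subunit gene, Gng5, had overlapping groups too (413 ± 46.8 and 416 ± 11.9 TPM, SD, n = 3 each).

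Of 15 genes in the table for receptor kinases, arrestins and RGS proteins, which end receptor signals, 13 were tested. Of these, 2 passed, both lower, against 8.51% of all genes tested in either direction. Rgs10 was at 67.0 ± 3.08 TPM with DMSO and 55.1 ± 1.80 with TVA (SD, n = 3 each), a log2 change of -0.28 (limma adjusted p 0.018). Rgs18 was at 2.69 ± 0.0971 and 1.99 ± 0.165 TPM (SD, n = 3 each), a log2 change of -0.30 (limma adjusted p 0.044). Rgs10 lost its call when DMSO replicate 3 or any TVA library was left out (0.057 to 0.089). Rgs18 lost its call whichever library was left out (0.052 to 0.17). Rgs1, the most abundant of them at 721 ± 54.4 and 761 ± 18.8 TPM (SD, n = 3 each), did not pass (limma adjusted p 0.37). Of 21 adenylyl cyclase and phosphodiesterase genes 10 were tested and none passed, with 5 of the 10 at an unadjusted limma p under 0.05, against 31.8% of all genes. With median-of-ratios scaling or the GC correction 2 of them passed, and with quantile normalization 1. Pde3b was the highest, at 58.1 ± 1.10 and 60.7 ± 2.11 TPM (SD, n = 3 each; limma adjusted p 0.32).

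Among 13 genes known to be induced by cAMP, 11 were tested. Of these, 2 passed as higher and 1 as lower, against 8.51% of all genes tested in either direction. Areg, which encodes the growth factor amphiregulin, had values of 0.92, 0.65 and 0.90 TPM in the DMSO libraries and of 2.87, 2.58 and 1.97 TPM in the TVA libraries (log2 change 0.92, SE 0.12, limma adjusted p 0.0075), and met the filter through the latter. It lost its call without TVA replicate 2 (0.051). Nr4a3, an orphan nuclear receptor gene of activated T cells, rose from 129 ± 4.30 to 145 ± 5.12 TPM (SD, n = 3 each; log2 change 0.17, limma adjusted p 0.048). Dusp1, a MAP kinase phosphatase gene, fell from 14.5 ± 1.86 to 10.6 ± 0.773 TPM (SD, n = 3 each; log2 change -0.41, limma adjusted p 0.041). Without DMSO replicate 3 or any TVA library, neither Nr4a3 (0.094 to 0.19) nor Dusp1 (0.096 to 0.15) passed, and Nr4a3 also missed after median-of-ratios scaling (0.061) and quantile normalization (0.054). Crem was at 16.1 to 16.4 TPM with DMSO and 16.0 to 16.9 TPM with TVA (limma adjusted p 0.90). Junb, the highest of the list, had values of 426, 199 and 346 TPM in the DMSO libraries and of 186, 170.4 and 169.5 TPM in the TVA libraries (limma adjusted p 0.071), with DMSO replicate 2 close to the TVA libraries. Without that library Junb was at -1.13 and passed (limma adjusted p 0.00023).

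Acid in culture comes largely from glycolysis. Of 8 genes for lactate production and for proton and lactate export, all were tested. Among them 1 passed, as lower, against 8.51% of all genes tested in either direction. Car2, a cytosolic carbonic anhydrase gene, fell from 7.12 ± 0.373 to 5.32 ± 0.570 TPM (SD, n = 3 each; log2 change -0.37, SE 0.077, limma adjusted p 0.033). It kept its call only without DMSO replicate 2 or TVA replicate 3 when a library was left out, and otherwise missed it (0.0502 to 0.15). Ldha, the highest at 1889 ± 75.9 and 1793 ± 15.6 TPM (SD, n = 3 each), did not pass (limma adjusted p 0.26).

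**Figure D4:**
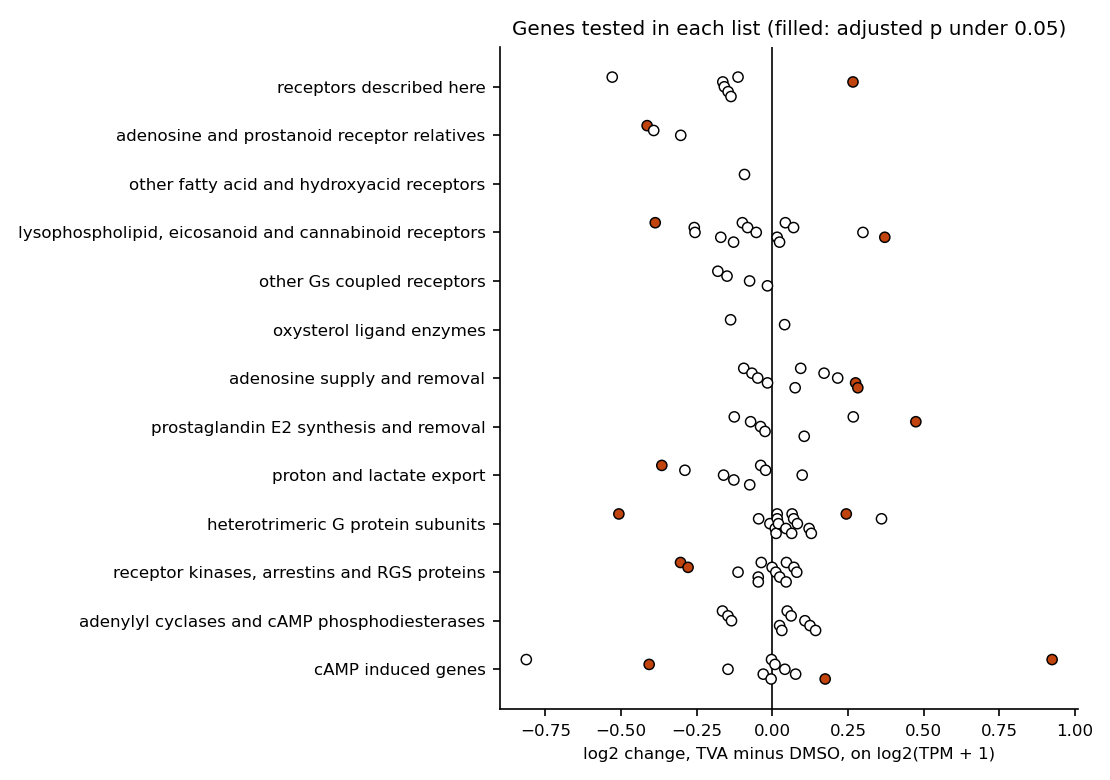
Log2 change, TVA minus DMSO (x axis), of each tested gene in the receptor group and in lists of relatives and pathway genes (rows), filled where the limma adjusted p was under 0.05. Most points lie near 0. The largest changes in size were Areg at 0.92 and Junb at -0.81, and only the former of these passed.

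**Figure D5:**
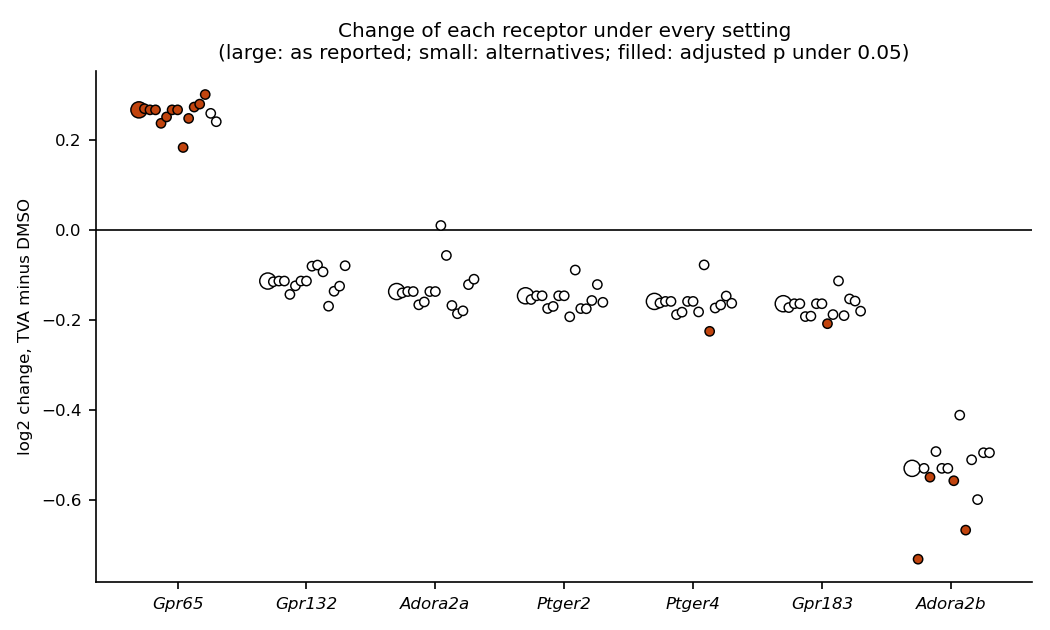
Log2 change, TVA minus DMSO (y axis), of the 7 tested receptors as reported (large points) and under each alternative (small points), filled where the adjusted p was under 0.05. Gpr65 stayed above 0 in all 14 alternatives, from 0.18 to 0.30, and Adora2a crossed 0 in 1 of them.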

How the data were processed

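Bulk RNA-seq libraries (3 DMSO, 3 TVA) were grouped by sample title, and table columns were assigned by each sample's description. The authors deposited 1 table of TPM per gene symbol, with 2 decimals and without pooling of replicates. The submitters' processing notes name STAR, RSEM and the mm10 build, with no role or version. The labels name an RNeasy extraction and a SMARTER mRNA-Seq kit, while the study's methods name another RNA kit. TPM carries no library total, so depth is unknown and no counting interval is given.

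Values were transformed as log2(TPM + 1). Genes with at least 1 TPM in at least 3 libraries (10866 of 24589) entered a linear model fitted with limma 3.58.1 (R 4.3.3; moderated variances with a trend, two-sided, Benjamini-Hochberg adjustment over all genes tested, no replicate block). The fit was tested on simulated data. Single values and ratios were compared by exact permutation over all 20 arrangements of the group labels. The members and lists were chosen with earlier results of these data known. Named were all members, up to 4 genes per list past the threshold, the most abundant gene per list, and the 3 genes most like each member; the remaining genes named were chosen after their values were seen. The result of 1 related gene is not reported here.

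Gene positions and overlaps were taken from GENCODE vM21 (GRCm38, equivalent to mm10) and promoters from RefSeq, which matched 8 of the 9 members. Alternatives were a pseudocount of 0.1, all genes above 0 TPM, only genes averaging 10 TPM or more, scaling by median of ratios, quantile normalization, no variance trend, a replicate block, each library left out in turn, and a GC correction (loess, span 0.5, of each gene's deviation on transcript GC content, available for 97.4% of genes tested). Figures were drawn with matplotlib 3.10.9.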

Additional observations from a re-analysis of the deposited data

How the results depend on the processing

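Of the 7 receptors tested, 1 passed the threshold as reported. The number was 2 with a pseudocount of 0.1 or median-of-ratios scaling and 3 with the GC correction. It ran from 0 (without TVA replicate 2 or 3) to 3 (without DMSO replicate 2) with a library left out, and was 1 under the other alternatives. Gpr65 kept its direction in all 14 alternatives and its call in 12. With a library left out its log2 change ran from 0.24 to 0.30. Gpr183 passed under the GC correction (-0.21). Adora2b passed with a pseudocount of 0.1 (-0.73, limma adjusted p 0.049), after median-of-ratios scaling (-0.55, 0.048), under the GC correction (-0.56, 0.040) and without DMSO replicate 2, and ran from -0.67 to -0.41 with a library left out. Ptger4 ran from -0.22 to -0.077 with a library left out. Adora2a turned to 0.0099 under the GC correction. The Ffar2 difference was -0.78 with a pseudocount of 0.1, which understates low genes less. Gpr132 and Ptger2 kept direction and side of the threshold under all alternatives, with Ptger2 from -0.17 to -0.089 and Adora2a from -0.19 to -0.057 when a library was left out. For none of these was the cause tested.

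The count of all genes past the threshold, 925 (574 higher, 351 lower), was 494 (270 and 224) among the 16749 genes above 0 TPM and 608 (430 and 178) among the 7563 averaging 10 TPM or more. Scaling moved the balance of directions, to 292 higher of 754 calls by median of ratios and 357 of 775 by quantile normalization, while the GC correction gave 1128 calls (597 and 531). With a library left out the counts ran from 102 to 2242 (38 to 1223 higher, 64 to 1019 lower), highest without DMSO replicate 2 and lowest without TVA replicate 2.

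Deviations of equally numbered libraries correlated at 0.16, 0.035 and -0.077, and replicate numbers were not taken as pairs. Blocking on the replicate number left 218 calls, 93 of them higher and 125 lower, with Gpr65 the 1 receptor among them (0.27, limma adjusted p 0.037). Among other named genes, it ended the calls of Nt5e, S1pr1, Gpr34 and Ptgir (limma adjusted p 0.052, 0.053, 0.061 and 0.071), while Dpp4 kept its call (0.045). Gpr34 also lost its call when all genes above 0 TPM were tested (limma adjusted p 0.078).

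Of 369 values of 27 other named genes under alternatives, 276 kept direction and side of the threshold, 73 lost and 6 gained a call, and 14, none of them past the threshold, changed sign. These were P2ry10 (-0.044 with the GC correction, -0.011 to 0.12 with a library left out), Hsd11b1 (-0.014 with the GC correction, -0.021 to 0.13 with a library left out), Ptges3 (-0.084 to 0.016 with a library left out), Gng5 (-0.014 with median-of-ratios scaling, -0.0024 with the GC correction, -0.047 to 0.11 with a library left out), Rgs1 (-0.031) and Pde3b (-0.045), both with the GC correction. The limits set by depth could not be assessed from TPM.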
